A study of Mus musculus with 6 samples.

Results

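The genes described here carry the names of the endosomal machinery that sorts membrane cargo, the copper ATPase Atp7b among it. Some of them act elsewhere. The genes were chosen by a rule on names, with earlier results of these data known. The rule took every probe set whose single platform gene symbol begins with Commd, Vps, Snx or Rab plus a digit, together with Ccdc22 and Ccdc93. This gave 133 of the 11811 probe sets in the table and 86 of its 7163 singly named genes: 8 genes of the Commd and CCC family, 21 Vps, 18 Snx and 39 Rab genes. Total liver RNA of 6 mouse samples was hybridised to 1 Affymetrix array each, 3 labelled Atp7b knockout (KO903, KO904 and KO905) and 3 labelled wild type (WT4, WT5 and WT6). The labels call the knockout an ATP7B KO mouse and name no tissue-limited deletion and no other allele or treatment in either group. It is a model of Wilson disease, in which copper builds up in the liver. The labels give no age, sex, strain or diet for either group, and the series title places the stage early in copper accumulation. The comparison asks whether transcripts of the listed genes differ in liver without Atp7b.

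Atp7b sits in the trans-Golgi network when copper is low and moves to vesicles near the bile canaliculus when copper is high, so it has to be sorted and retrieved repeatedly. COMMD proteins join Ccdc22 and Ccdc93 in the CCC complex, which works with the retriever complex (Vps35l, Vps26c and Vps29) to recycle cargo from endosomes. The related retromer (Vps35, Vps26 and Vps29) and the sorting nexins retrieve other cargo, and Rab GTPases give each membrane compartment its identity. Loss of COMMD1, a partner of Atp7b, causes copper storage in the liver of Bedlington terriers.

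The arrays were alike in overall signal, with medians of 330.8 to 342.8. Correlations of log2 signals were at least 0.974 within a group and at most 0.970 between groups. Hepatocyte markers were high on every array, with a summed signal of 6 genes of 113000 to 134300 in the knockout and 120700 to 143900 in wild type. All 8 Kupffer cell and macrophage markers had log2 differences above 0 (median 0.32, 3 at an unadjusted p under 0.05 and 0 called by limma), with summed signals of 5634 to 7592 in the knockout and 4172 to 5756 in wild type. Among 7 endothelial markers 6 lay above 0, 4 were at an unadjusted p under 0.05 and 0 were called by limma, with summed signals of 2946 to 3632 against 2446 to 2834. The one below 0, Lyve1, was among these 4 (unadjusted p = 0.026 by limma). It had the largest difference of that list (log2 -0.56, adjusted p = 0.202), with low signals of 67.4 to 156.8. None of these markers was at 0. The erythroid marker Alas2 (log2 0.9995, adjusted p = 0.00183) and the pancreatic marker Cela1 (log2 0.77, adjusted p = 0.0106) were called higher by limma. Each stood among only 1 or 2 markers of its list in the table. The other pancreatic marker, Cela3b, was not called (log2 0.08, adjusted p = 0.84). The part of all these cell-type markers in the results below was not tested. In whole liver a change in the number of cells of a type cannot be told apart from a change in RNA per cell. Atp7b itself was read by 1 probe set, at 240.5, 231.8 and 184.9 in the knockout and 259.0, 299.7 and 241.0 in wild type (log2 -0.27 ± 0.16 SE, adjusted p = 0.407), and whether that probe set lies in the disrupted part was not examined.

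None of the endosomal sorting and Rab genes was called changed in the Atp7b knockout. Of the 133 probe sets, 124 (83 genes) had a mean signal of at least 100 and were tested. Limma called 0 of them at an adjusted p of 0.05, while 4.14% of all 10620 tested probe sets and 3.94% of all 6604 tested genes were called. At an unadjusted p under 0.05 there were 13 member probe sets (10.5%), 10 of them higher and 3 lower in the knockout, against 17.9% of all tested probe sets. All 13 came from 10 genes, with Rab18, Rab5c, Rab24, Rab29, Rab2a, Vps35l, Snx19 and Snx21 on the higher side and Rab6a and Rab1a on the lower side. The smallest adjusted p belonged to Rab6a (0.0522) and Rab18 (0.0609).

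The differences were small and the intervals bounded most of them. The log2 differences (knockout minus wild type) of the 124 probe sets ran from -0.51 for Rab6a to 0.57 for Snx19. For 122 of them (98.4%) the 95% confidence interval lay within a 2-fold change in either direction, against 94.8% of all tested probe sets, and for 93 (75%) it lay within 1.5-fold, against 65.2%. The 2 whose interval reached past 2-fold were Commd1 (-0.18 to 1.12) and Snx19 (0.12 to 1.03). The median half-width of the interval, which is not adjusted for the number of tests, was 0.33 on the log2 scale. Smaller changes were mostly not detectable with 3 arrays per group. Larger ones could also miss the adjusted threshold, as those of Rab6a and Snx19 did.

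**Figure D1:**
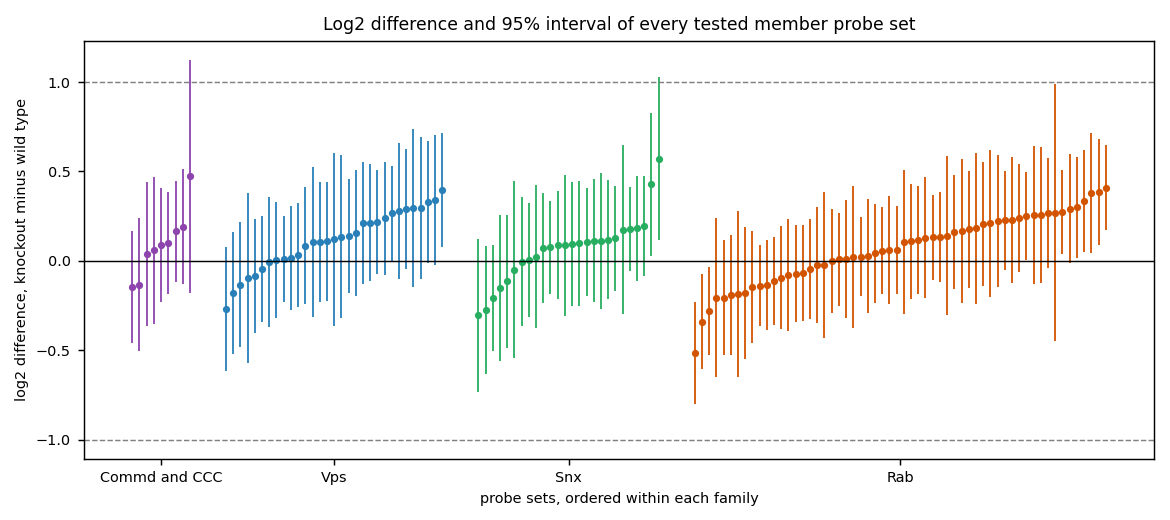
Log2 difference (knockout minus wild type, vertical axis) of each of the 124 tested probe sets with its 95% confidence interval from limma, ordered within the 4 families along the horizontal axis; dashed lines mark a 2-fold change. Most intervals cross 0, and the 2 that pass the upper dashed line belong to Commd1 and Snx19.

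Small positive differences were the more frequent ones. In 89 of 124 member probe sets (71.8%) the log2 difference was above 0, against 54.6% of all tested probe sets, and with 1 probe set per gene it was 60 of 83 genes (72.3%) against 56.4%. With each array centred on its median the shares of probe sets above 0 were 62.9% and 49.1%. The median over the 83 genes was 0.11, compared with 0.03 over all tested genes. The knockout values lay wholly above the wild-type values in 22 member probe sets (17.7%, against 13.2% of all tested) and wholly below in 7 (5.65%, against 10.4%). By array, the members' median deviation from their own mean was 0.03 to 0.06 in the knockout, -0.01 in WT4 and WT6 (-0.0136 and -0.0052), and -0.06 in WT5. WT5 was thus the lowest array for these genes, and without it the median over the genes was 0.06, against 0.03 over all tested genes. These shares describe the list and were not tested.

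In the Commd and CCC family, 6 of 7 tested genes had log2 differences above 0, with a median of 0.10, and none passed the test. Commd1 stood apart by its spread. Its probe set of higher signal read 852.1, 1014.2 and 356.8 in KO903, KO904 and KO905, and 483.9, 469.2 and 498.2 in WT4, WT5 and WT6. KO903 and KO904 thus lay above every wild-type array and KO905 below every one, so the groups overlapped. Mean signals were 741 ± 343 against 484 ± 14.5 (SD, n = 3 each), with a log2 difference of 0.47 ± 0.30 (SE, adjusted p = 0.449). Between the highest and lowest knockout array the signal differed 2.76-fold, against 1.06-fold among the wild-type arrays. That was the widest knockout range of the 124 member probe sets, and 27 of 10620 tested probe sets (0.254%) had a range at least as wide. Without KO905, the knockout array that lay below wild type, the log2 difference was 0.92 and passed the test (adjusted p = 0.0125). That omission by itself sets the groups apart. Leaving out any other 1 array gave log2 differences of 0.19 to 0.49, with adjusted p from 0.528 to 0.825 by limma.

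The other probe set of Commd1 did not follow. It read 147.7, 136.3 and 191.5 in KO903, KO904 and KO905 and 189.6, 163.4 and 169.0 in WT4, WT5 and WT6 (log2 -0.13 ± 0.17 SE, adjusted p = 0.749). On it KO905 was the highest of all 6 arrays, whereas on the brighter probe set KO905 was the lowest. The transcript or exon that each probe set reads was not examined. For the other COMMD genes the differences were smaller. Commd2, Commd4, Commd5, Commd6 and Commd7 had log2 differences of 0.06 to 0.19 on the probe set that stands for each, and Commd9 of -0.15. Commd4, the highest of these, read 544.8, 628.6 and 535.5 in the knockout and 462.7, 441.2 and 595.4 in wild type, with overlapping groups. On Commd2 and Commd6 all knockout values lay above wild type. These were 2 of 9 tested probe sets of the family (22.2%, against 13.2% of all tested). Ccdc22, a core CCC subunit, was below the signal minimum, at 63.4 to 73.2 in the knockout and 71.2 to 96.9 in wild type, and was not tested. Ccdc93 was not analysed here.

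Because the probe sets of Commd1 went different ways, the promoters of its annotated starts are shown. RefSeq (build GRCm38.p6) gives starts on the minus strand with windows at chr11:22982235-22982534 and chr11:22972817-22973116, each reaching from 250 bases before to 50 after the start. Capitals mark the only match to the core of the metal response element, the site bound by the metal-sensing factor Mtf1, searched as TGCACNC and TGCGCNC on both strands.
Commd1 upstream start: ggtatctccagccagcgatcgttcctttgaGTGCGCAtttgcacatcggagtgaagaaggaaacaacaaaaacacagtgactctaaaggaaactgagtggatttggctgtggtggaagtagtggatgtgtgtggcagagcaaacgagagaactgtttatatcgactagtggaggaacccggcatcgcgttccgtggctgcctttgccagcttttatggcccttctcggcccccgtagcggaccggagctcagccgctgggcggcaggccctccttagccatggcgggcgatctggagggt
Commd1 downstream start: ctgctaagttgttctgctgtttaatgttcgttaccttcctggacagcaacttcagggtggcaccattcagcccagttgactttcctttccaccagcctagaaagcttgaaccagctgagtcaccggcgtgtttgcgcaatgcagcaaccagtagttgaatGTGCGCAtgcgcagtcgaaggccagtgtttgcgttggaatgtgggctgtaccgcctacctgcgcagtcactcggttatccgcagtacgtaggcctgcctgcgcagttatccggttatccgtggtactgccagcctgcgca
Each window held 1 match, in the reverse orientation. Promoters of the metallothionein genes Mt1 and Mt2, searched the same way, held 3 and 4.

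The promoter table matched 69 of the 86 genes. A metal response core was present for 30 of them (43.5%), against 40.0% of the 5441 matched genes tested on the arrays, a share near the background. By family it was found for 9 of 14 Snx genes, 7 of 14 Vps genes, 12 of 35 Rab genes and 2 of 6 Commd and CCC genes. The palindrome CACGTG, the centre of the E-box bound by lysosomal regulators of the TFEB group, was present for 12 of 69 (17.4%), against 12.2%, and overlapped no metal response core. Base composition was not matched between these sets. The window of Rab6a held neither motif, and no match says only that these letters were not in this window.

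Retriever and retromer genes did not pass the test. Vps35l, the scaffold of retriever, read 276.5, 258.5 and 239.3 in the knockout and 196.3, 208.9 and 172.6 in wild type. All 3 knockout arrays lay above the wild-type arrays. The log2 difference was 0.40 ± 0.14 (SE, 95% interval 0.08 to 0.71), with an adjusted p of 0.173. Vps26c, the retriever counterpart of Vps26, had a log2 difference of 0.24 (adjusted p = 0.429), with the groups apart. Vps29, shared by retriever and retromer, gave 0.08 on its brightest probe set (adjusted p = 0.825) and 0.12 and 0.29 on its others. Vps35, the scaffold of retromer, read 1487.7, 1499.5 and 1690.0 in the knockout and 1523.8, 1471.9 and 1651.8 in wild type (log2 0.01 ± 0.11 SE, 95% interval -0.23 to 0.25, adjusted p = 0.981), and its sign turned under several alternatives. The dimmer probe set of Vps35 gave 0.33 (adjusted p = 0.301), with the groups apart. The cargo-binding retromer subunits Vps26a and Vps26b gave -0.01 and 0.21.

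Among the other Vps genes no unadjusted p was under 0.05. The ESCRT genes Vps28, Vps36, Vps37a, Vps37c, Vps4a and Vps4b belong to the machinery that sorts ubiquitinated cargo into multivesicular bodies. They ran from -0.05 (Vps28) to 0.28 (Vps36), with 5 of 6 above 0 and a median of 0.14. The tethering subunits Vps50, Vps52, Vps53 and Vps54, of vesicles returning to the Golgi and to recycling endosomes, ran from -0.09 to 0.29. The late endosome and lysosome fusion subunits Vps11, Vps16 and Vps41 were the only class with a median below 0 (-0.10), over 3 genes. The probe sets of Vps11 gave opposite signs, -0.27 and 0.30. Vps41 gave -0.10, 0.27 and 0.03 on its probe sets, and KO904 at 798.4 stood above the other arrays (416.7 to 581.0) on the brightest. Vps72 and Vps9d1 share the prefix; Vps72, a subunit of chromatin remodelling complexes and no endosomal protein, had a log2 difference of 0.34 (adjusted p = 0.314).

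Of the 18 sorting nexins, phosphoinositide-binding proteins of endosomal membranes, 13 lay above 0 with a median of 0.10, and none passed the test. Snx19 read 526.5, 665.5 and 379.9 in the knockout and 346.9, 411.3 and 271.9 in wild type, so that KO905 lay within the wild-type range. Its log2 difference of 0.57 ± 0.21 (SE) had an adjusted p of 0.169, and its other probe set gave 0.12. Snx21 read 117.8, 128.0 and 118.4 in the knockout and 71.4, 85.9 and 103.6 in wild type, with the groups apart (log2 0.43 ± 0.18 SE, adjusted p = 0.244); these signals were near the minimum. Snx3, which works with retromer on its own, read 2328.3, 1975.4 and 2211.0 against 1974.0, 1932.4 and 1834.8 (log2 0.18, adjusted p = 0.422). The lowest knockout value there was just above the highest wild-type value. The retromer-associated nexins Snx1, Snx2, Snx5 and Snx6, which bend membrane into tubules, gave 0.11, 0.08, -0.21 and 0.13 on their brightest probe sets. Each had a 95% interval that included 0. The dimmer probe sets of Snx5 differed in sign, at -0.31, 0.02 and 0.17, and that of Snx6 gave 0.01. Snx17, an adaptor that hands cargo to retriever, gave -0.12 (adjusted p = 0.781).

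Of the 58 Rab probe sets tested, 10 had an unadjusted p under 0.05 (17.2%), a share near the 17.9% of all tested probe sets. Rab6a, which directs traffic at the Golgi and back from endosomes, read 658.5, 577.2 and 654.8 in the knockout and 947.9, 787.4 and 992.3 in wild type. Every knockout value was below every wild-type value. The means were 630 ± 45.9 and 909 ± 108 (SD, n = 3 each), a log2 difference of -0.51 ± 0.13 (SE, 95% interval -0.80 to -0.23) or 1.43-fold lower, with an adjusted p of 0.0522. The other probe set of Rab6a had overlapping groups (log2 -0.18, adjusted p = 0.637), with values of 473.1 to 754.7 in the knockout. Rab6a passed the threshold with each array centred on its median (adjusted p = 0.0404), at a minimum signal of 200 (0.0455), with array weights (0.0316) and without WT5 (0.0246). It was farther from it without any of the other arrays (0.115 to 0.176).

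Rab1a, which governs transport from the endoplasmic reticulum to the Golgi, was lower on each of its probe sets with the groups apart. The brighter one read 3568.2, 2981.3 and 3739.4 in the knockout and 4354.0, 3871.2 and 4256.8 in wild type (log2 -0.28 ± 0.11 SE, adjusted p = 0.211). The other gave -0.34 ± 0.12 (SE, adjusted p = 0.158). Rab1b, its close relative, had a log2 difference of 0.11 (adjusted p = 0.819), and the difference between these relatives was not tested.

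Rab18, of lipid droplets and the endoplasmic reticulum, read 2228.5, 2445.1 and 2324.4 in the knockout and 1917.6, 1746.0 and 1607.2 in wild type. The groups were apart, at 2333 ± 109 and 1757 ± 156 (SD, n = 3 each), and the difference was 1.33-fold (log2 0.41 ± 0.11 SE, 95% interval 0.17 to 0.65, adjusted p = 0.0609). Its dimmer probe set gave 0.06 (adjusted p = 0.869). Quantile normalization brought the brighter one under the threshold (adjusted p = 0.0476), and leaving out any 1 array did not (0.0731 to 0.201).

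**Figure D2:**
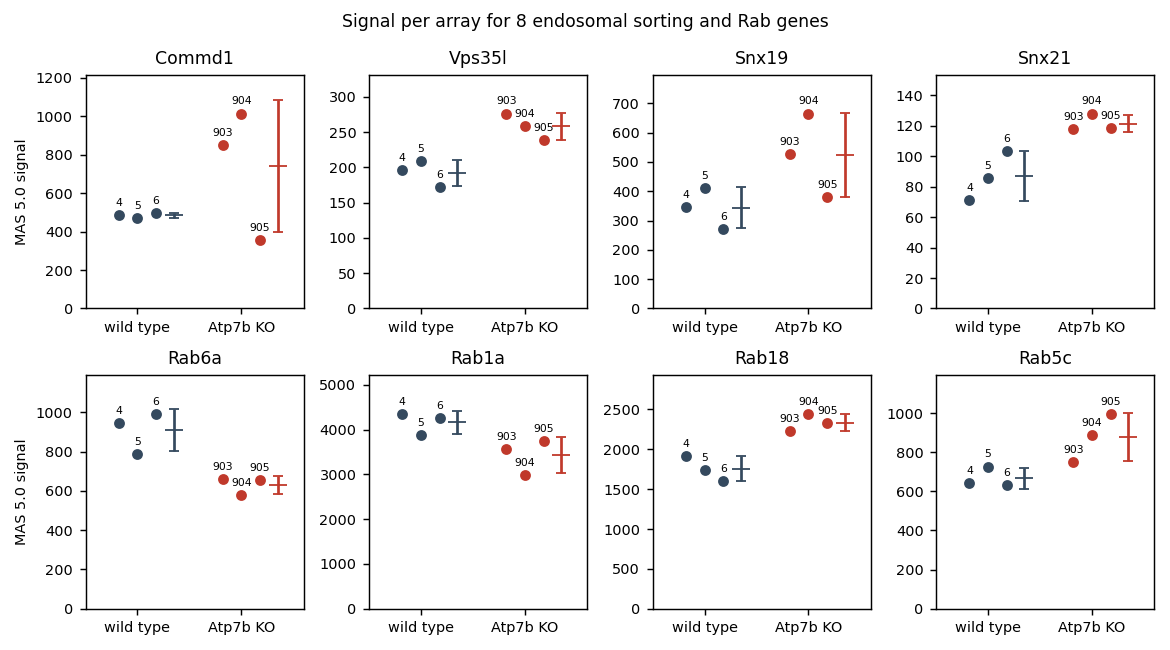
MAS 5.0 signal (vertical axis, linear from 0) on each of the 6 arrays for 8 genes, with the sample number beside each point; bars give the mean ± SD of 3 arrays per group. In Commd1 the knockout arrays fall on either side of the tight wild-type arrays, while in Rab6a, Rab1a, Rab18, Rab5c, Vps35l and Snx21 the groups do not overlap. Rab6a, Rab18, Rab5c, Vps35l, Snx19 and Snx21 were chosen for the smallest p of their role, which favours groups that lie apart. Knockout values lay wholly above wild type in 17.7% of member probe sets and wholly below in 5.65%, against 13.2% and 10.4% of all tested.

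Further Rab genes with an unadjusted p under 0.05 were all higher in the knockout, and none passed the test. Rab5c, of early endosomes, read 749.3, 888.7 and 996.1 in the knockout and 641.9, 726.9 and 629.9 in wild type (log2 0.38 ± 0.14 SE, adjusted p = 0.156). Its relatives Rab5a and Rab5b, which work at the same membrane, gave 0.01 (adjusted p = 0.986) and 0.03 (adjusted p = 0.955). Rab24, linked to autophagy, was higher on both probe sets (log2 0.33 and 0.38, adjusted p = 0.204 and 0.221), with the groups apart on each. Rab2a, which acts between the endoplasmic reticulum and the Golgi, gave 0.25, 0.27 and 0.13 on its 3 probe sets, and Rab29, a Golgi and lysosome Rab, gave 0.30 (adjusted p = 0.251). Rab5c was named for its small p, and Rab24, Rab2a and Rab29 were likewise singled out after their values were seen.

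The Rabs best known for the routes of copper ATPases and other recycling cargo had differences near 0 on the probe set that stands for each. Rab7, of late endosomes and the recruiter of retromer, read 2351.3, 2085.9 and 2107.7 in the knockout and 2129.7, 2150.3 and 2146.5 in wild type (log2 0.02 ± 0.10 SE, 95% interval -0.20 to 0.25, adjusted p = 0.933). Rab11a, of recycling endosomes and of delivery to the bile canaliculus, read 1141.1, 1030.5 and 1064.2 against 1103.8, 996.9 and 999.3 (log2 0.06, 95% interval -0.18 to 0.31, adjusted p = 0.83). Rab5a read 699.7, 741.6 and 787.9 against 778.3, 675.8 and 765.1 (95% interval -0.25 to 0.27). The signs of Rab7 and Rab5a turned with each array centred on its median. On these probe sets the intervals of the 3 genes leave room for changes of up to about 0.3 on the log2 scale. The dimmer probe set of Rab11a gave 0.21, with a wider 95% interval of -0.20 to 0.62. That of Rab7 gave -0.07 (95% interval -0.34 to 0.20).

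Rab14, with 5 tested probe sets, illustrates the spread within a gene: 3 of them had all knockout values below wild type (log2 -0.14, -0.14 and -0.19), while the other two gave 0.27 and 0.04. Over all members, 32 genes had several tested probe sets, and in 20 of these they shared a sign (17 above 0 and 3 below), while in 12 they did not. Rab31 and Rab32, which are prominent in myeloid cells, gave 0.27 (adjusted p = 0.74) and -0.19 (adjusted p = 0.714), with overlapping groups. The Kupffer cell marker sums given above also overlapped (5634 to 7592 in the knockout and 4172 to 5756 in wild type), and a link to these Rab genes was not tested. Rab5if, an assembly factor named for its interaction with Rab5, gave 0.29 (adjusted p = 0.304), and Rab3ip, an exchange factor for Rab8, gave -0.08. Of the 9 probe sets below the signal minimum, 8 read Rab genes, and Rab20 and Rab23 had no other probe set, which left them untested with Ccdc22.

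**Figure D3:**
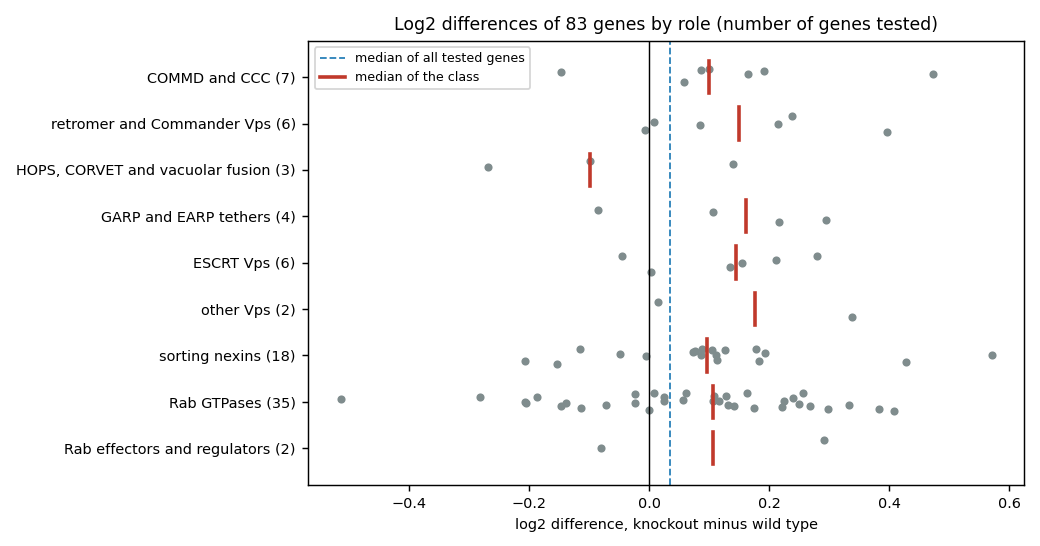
Log2 differences (knockout minus wild type, horizontal axis) of 83 genes, 1 point each, by role; red bars are class medians and the dashed line is the median of all tested genes (0.03). Every class has its median above that line except the late endosome and lysosome fusion class at -0.10.

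Genes of the same routes that carry none of these prefixes, 106 tested in 7 lists, gave 1 call (0.943%, against 3.94% of all tested genes). It was Atox1, the chaperone that hands copper to Atp7b, which rose from 1609 ± 158 to 2314 ± 87.3 (SD, n = 3 each; log2 0.52 ± 0.11 SE, adjusted p = 0.0251). No gene was called by limma among 7 of the WASH complex (1 at an unadjusted p under 0.05), 20 ESCRT subunits (2), 23 adaptors and coat proteins (2), 25 tethers and recycling factors (2), 20 Rab regulators (1) or the 1 further Commander gene (0). With 3 of 10 copper ATPase genes and partners this made 11 genes at an unadjusted p under 0.05 (10.4%, against 18.0% of all tested genes). That Commander gene, Dennd10, had a log2 difference of -0.31 (adjusted p = 0.375), opposite in sign to Vps35l and Vps26c. Beside Atox1, the copper genes at an unadjusted p under 0.05 were the copper importer Slc31a1 (log2 -0.34, adjusted p = 0.176) and Zbtb16 (log2 -1.31, adjusted p = 0.124), whose signals were low and spread widely (40.2 to 185.2 in the knockout and 150.5 to 355.6 in wild type). The median log2 difference over the 106 genes was 0.07. Closest to the threshold was Tbc1d15, a GTPase-activating protein of Rab7, at 581.6, 551.1 and 583.9 in the knockout and 421.1, 324.7 and 432.5 in wild type (log2 0.54 ± 0.14 SE, adjusted p = 0.0576). The ESCRT-associated genes Chmp3 and Stambp followed, with log2 differences of 0.45 (adjusted p = 0.0718) and 0.44 (adjusted p = 0.0937) and the groups apart. Ehd3, of endosome recycling, was on the lower side (log2 -0.37, adjusted p = 0.102).

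**Figure D4:**
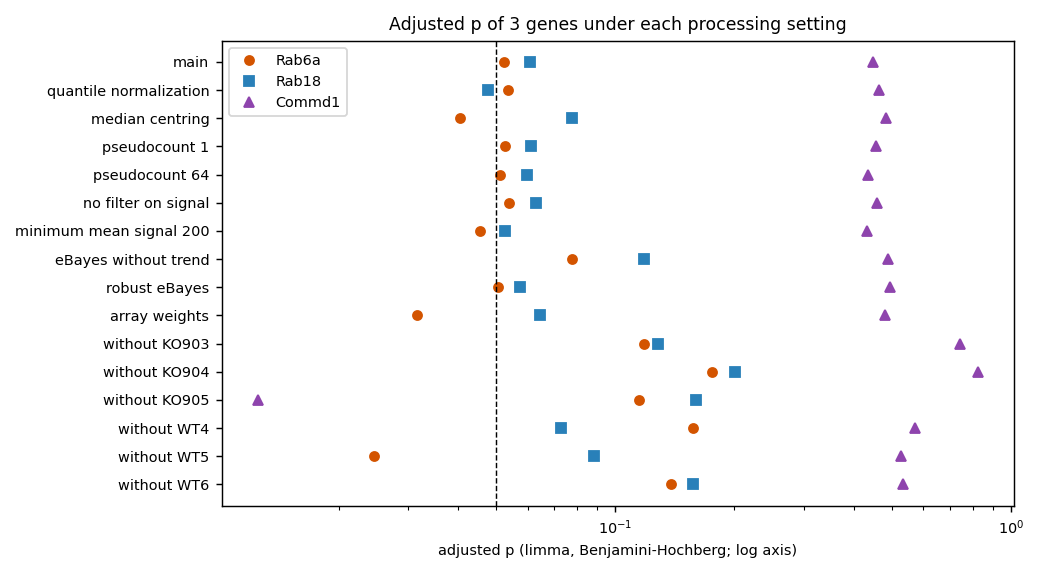
Adjusted p (horizontal axis, log scale) of Rab6a, Rab18 and Commd1 in the fit reported (main) and under each alternative or with 1 array left out; the dashed line is 0.05. In the settings that keep all 6 arrays Rab6a lies between 0.0316 and 0.0779 and Rab18 between 0.0476 and 0.118, while Commd1 crosses the line only without KO905.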

How the data were processed

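Per the labels, each deposited value is a linear intensity, the Affymetrix Microarray Suite 5.0 signal of 1 array per sample, scaled to a common target of 350. The sources used here do not say how the 11811 probe sets were selected. Groups came from the sample titles. Nothing states that the samples are separate animals, so the p-values reflect only the spread between these arrays, which may be technical.

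Knockout was compared with wild type on log2(signal + 16), so fold changes of low signals are understated. The 33 control probe sets and 1158 with a mean signal under 100 were left out. A linear model was fitted to the other 10620 with limma 3.58.1 (lmFit, eBayes with trend; R 4.3.3), with two-sided p-values adjusted by Benjamini-Hochberg over all 10620 and a threshold of 0.05. Standard errors and 95% intervals are limma's. The script was tested on simulated data. No exact permutation test of 3 against 3 can go below 0.1. Names came from the platform annotation (10776 probe sets with 1 symbol, 418 with several, 584 with none). Entrez identifiers of 10762 were found in RefSeq (GRCm38.p6), and 0 symbols changed. The brightest probe set stood for a gene.

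Named were the genes called and up to 3 more per role with the smallest p if under 0.05. Added were a fixed list (Commd1, Ccdc22, Ccdc93, Vps35, Vps29, Snx1, Rab5a, Rab7, Rab11a) and the brightest gene of each family. These were 16 in all without Ccdc93, which was not analysed here. Others were named to cover their class or after their values were seen, as were Rab24, Rab2a, Rab29, Tbc1d15, Chmp3, Stambp and Ehd3. Members and lists were chosen with earlier results of these data known. Cell-type lists for leukocytes (1 gene tested, median log2 0.23), stellate cells (4 tested, median 0.02), biliary cells and adipocytes gave 0 calls by limma (0 at an unadjusted p under 0.05); 0 biliary and 0 adipocyte genes were in the table.

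Alternatives were quantile normalization, median centring, pseudocounts of 1 and 64, no filter, a minimum of 200, robust eBayes, eBayes without trend, array weights, each array left out, a threshold of 0.10 and the mean over a gene's probe sets. Figures used Python 3.11.15 and matplotlib 3.10.9.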

Additional observations from a re-analysis of the deposited data

How the results depend on the processing

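Over all probe sets 440 were called, 786 at a threshold of 0.10 and 175 to 475 with 1 array left out. Among the member probe sets and genes, 0 were called in the fit reported; 1 was under quantile normalization (Rab18), under median centring, a minimum signal of 200 and array weights (Rab6a each time), and 2 at a threshold of 0.10 (Rab6a and Rab18). With 1 array left out the count ran from 0 to 1, the call being Commd1 without KO905 and Rab6a without WT5. The other alternatives gave 0. The cause of these shifts was not tested. Family medians stayed above 0 under every alternative run, but not always above the median of all tested genes. Without WT5 the medians of Vps (0.0317) and Snx (0.0257) lay below that of all genes (0.0345). Without KO904 that of Rab (0.012) lay below that of all genes (0.0212). All other family medians lay above that of all genes, where a run gave the latter. The Rab median of 0.11 was 0.06 with no filter (0.0612) and at a minimum of 200 (0.059). With 1 array left out the medians were 0.0566 to 0.1468 over all members, 0.0879 to 0.1656 for Commd and CCC, 0.012 to 0.1285 for Rab, 0.0257 to 0.1494 for Snx and 0.0317 to 0.1734 for Vps. Those of all members, Vps and Snx were lowest without WT5, that of Rab without KO904, and that of Commd and CCC was highest without KO905. Median centring moved the median of all genes from 0.03 to 0.01.

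Of 238 values of named genes under alternatives, 220 kept their sign and side of the threshold and 8 passed it. The other 10 changed sign and none of those was called: Vps35 (-0.0213 with median centring; -0.0505 to 0.055 with 1 array left out), Rab5a (-0.0222 with median centring and -0.0133 with array weights; -0.055 to 0.049 with 1 array left out) and Rab7 (-0.0056 with median centring; -0.0307 to 0.0551 with 1 array left out). No paired analysis was possible because the groups share no replicate numbers. With 3 arrays per group, differences under about 0.3 on the log2 scale were mostly not detectable. In the fit reported, differences of 0.41 (Rab18), -0.51 (Rab6a) and 0.57 (Snx19) also missed the adjusted threshold.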

Other observations

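The neighbours of Commd1 on its chromosome were looked at after its values were seen. Of the 6 protein-coding genes on each side of Commd1 in RefSeq, 7 were tested, with 16 probe sets. On 9 of the 16 probe sets KO905 was the knockout array nearest to the wild-type mean, against 37.1% of all tested probe sets; 7 of these 9 came from 2 genes, with 4 of 5 probe sets of Cct4, a chaperonin subunit gene, and 3 of 3 of Mdh1, the cytosolic malate dehydrogenase gene. It was 1 of 2 for B3gnt2 and for Usp34, and 0 for the 4 probe sets of Ahsa2, Ehbp1 and Xpo1. The probe sets of these 2 genes with the widest gap between KO905 and the other knockout arrays, chosen after their values were seen, are given here. That of Cct4 read 326.7 and 296.8 in KO903 and KO904, 456.4 in KO905, and 460.4, 372.6 and 494.9 in wild type. That of Mdh1 read 2121.2, 2212.3 and 2809.1 in that order, and 3060.7, 2974.2 and 3059.3 in wild type. No probe set of Cct4 or Mdh1 was called by limma (smallest adjusted p = 0.135). Xpo1, the nuclear export receptor gene, was called higher on 1 of its 2 probe sets (log2 0.60, adjusted p = 0.0362). A shared basis for these values was not tested.

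The order seen on the brighter Commd1 probe set, with KO903 and KO904 above every wild-type array and KO905 below every wild-type array, occurred in 180 of 10620 tested probe sets (1.69%). Among the members it occurred in 3, the others being Rab5b and Rab8b. Rab5b read 304.0, 329.8 and 252.3 in KO903, KO904 and KO905, and 269.2 to 301.9 in wild type. Rab8b read 296.3, 282.5 and 181.8, and 231.8 to 269.7 in wild type.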
